A study of Mus musculus with 18 samples.

Results

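The 40 genes described here encode the machinery of macroautophagy, the receptors that bring cargo to it, and the MiT/TFE transcription factors that act on autophagy and lysosome genes. They were taken by gene symbol and not by their values, though with earlier results of these data known. All 40 were on the array, 27 of them with 1 probe and 13 with 2, and all 40 were among the 20791 genes tested. A total of 39 members were well above background in all 18 samples, and the exception, Atg4a, was above it in 6.

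Macrophages had been grown for 7 days in macrophage colony stimulating factor from femoral marrow of male C57BL/6J mice that were 8 weeks old, and 200 ng of their RNA was hybridised per array to 1-colour Agilent mouse arrays. The 18 samples formed 6 groups of 3. Cells labelled PHD3-/-, called KO below, and wild-type (WT) cells were each studied at low oxygen (label 1, fed as controls), after starvation (oxygen label 20) and as controls (oxygen label 20, not starved). The labels give oxygen without a unit and do not say whether cells or mice were starved. PHD3, the product of Egln3, is an oxygen-dependent prolyl hydroxylase of the hypoxia-inducible factors (HIF). The labels do not say how its gene was disrupted or whether samples of different conditions came from the same mice, so p-values measure the spread between these samples.

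Levels below are log2 signals after background subtraction, and a level of 0 equals the 75th percentile of the array. A gene's value is that of its brightest probe. Egln3 itself averaged 2.85 ± 0.14 in KO cells and 2.90 ± 0.09 in WT cells at low oxygen, -2.41 ± 0.18 in KO and -2.30 ± 0.09 in WT cells after starvation, and -3.95 ± 0.23 in KO and -3.46 ± 0.34 in WT controls (SD, n = 3 each). KO and WT did not differ past the threshold in any condition. Whether its probe lies in the deleted part is not stated, so Egln3 does not check the labels. All 7 macrophage markers on the array were well above background in every sample. Earlier results of these data had found WT control replicate 1, KO control replicate 3 and WT starved replicate 3 apart from the rest, so counts are also given without these 3 samples. The 20 arrays had 56.1% to 65.4% of spots well above background and no saturated spot, and their number limits the precision.

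Autophagy encloses part of the cytoplasm in a double membrane that fuses with lysosomes. The ULK1 kinase complex starts the process, a class III PI3 kinase complex marks the membrane with a lipid, ATG9 and ATG2 supply lipid, and a pair of ubiquitin-like conjugation systems attach ATG8 proteins (the LC3 and GABARAP families) to it. Starvation and low oxygen are both known triggers, acting largely through phosphorylation of existing proteins, while HIF, TFEB and FOXO factors act on transcription of some of the genes. In macrophages the pathway also degrades microbes, lipid and damaged mitochondria.

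Promoters are shown for Atg13, Atg9a and Atg2b, the members with the largest called rises at low oxygen, and for Tfeb, the member with the largest called fall. Each line holds the 250 bases before an annotated RefSeq transcription start of GRCm38.p6, 5′ to 3′ on the strand of the gene, and capitals mark ACGTG or GCGTG, the core letters of HIF response elements, on either strand. The Atg13 stretch lies at chr2:91710593-91710842 on the minus strand, that of Atg9a at chr1:75192011-75192260 on the minus strand, and that of Atg2b at chr12:105685242-105685491 on the minus strand. Tfeb has 3 annotated windows on the plus strand, at chr17:47736787-47737036, chr17:47737681-47737930 and chr17:47785494-47785743, printed in that order.
Atg13: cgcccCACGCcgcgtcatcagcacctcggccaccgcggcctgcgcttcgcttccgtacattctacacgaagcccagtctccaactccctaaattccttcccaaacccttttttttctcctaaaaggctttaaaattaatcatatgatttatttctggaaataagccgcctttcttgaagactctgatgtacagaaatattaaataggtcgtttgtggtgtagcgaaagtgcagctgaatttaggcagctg
Atg9a: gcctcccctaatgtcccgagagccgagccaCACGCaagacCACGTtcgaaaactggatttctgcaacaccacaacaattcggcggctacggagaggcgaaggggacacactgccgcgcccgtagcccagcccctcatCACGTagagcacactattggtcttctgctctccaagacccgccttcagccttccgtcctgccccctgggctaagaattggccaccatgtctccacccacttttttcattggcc
Atg2b: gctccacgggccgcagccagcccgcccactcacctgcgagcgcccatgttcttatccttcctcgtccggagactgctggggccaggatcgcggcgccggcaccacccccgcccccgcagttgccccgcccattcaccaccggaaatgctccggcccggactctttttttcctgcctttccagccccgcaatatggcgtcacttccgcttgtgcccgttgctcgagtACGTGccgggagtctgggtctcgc
Tfeb start 1: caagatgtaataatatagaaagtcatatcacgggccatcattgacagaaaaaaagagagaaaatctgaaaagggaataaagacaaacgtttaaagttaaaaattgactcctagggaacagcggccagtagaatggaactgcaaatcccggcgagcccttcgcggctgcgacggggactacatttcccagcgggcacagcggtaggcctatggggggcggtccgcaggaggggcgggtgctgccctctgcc
Tfeb start 2: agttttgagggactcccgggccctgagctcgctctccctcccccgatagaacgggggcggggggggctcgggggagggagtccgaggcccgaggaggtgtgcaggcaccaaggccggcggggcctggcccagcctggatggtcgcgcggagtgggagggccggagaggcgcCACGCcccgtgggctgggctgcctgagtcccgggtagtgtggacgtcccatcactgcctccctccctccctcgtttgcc
Tfeb start 3: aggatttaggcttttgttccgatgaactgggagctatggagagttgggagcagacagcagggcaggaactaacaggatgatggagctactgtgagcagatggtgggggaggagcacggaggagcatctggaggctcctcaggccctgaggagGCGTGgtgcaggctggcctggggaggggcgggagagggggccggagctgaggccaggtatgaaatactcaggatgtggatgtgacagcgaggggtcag

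In these stretches Atg13 held 1 match, whose first base lies 245 bases before the start, Atg2b 1 at 24 bases, and Atg9a 3, at 220, 210 and 113 bases. The first Tfeb stretch held 0 matches, the second 1 at 79 bases and the third 1 at 98 bases. RefSeq windows of 300 bases (250 before and 50 after the start) were on hand for 34 of the 40 members. Rb1cc1, Map1lc3a, Pik3c3, Atg12, Becn1 and Atg16l1 had none in the table used. On either strand, ACGTG occurred in a window of 16 of the 34 members (47.1%), against 23.2% of 17491 protein-coding genes. GCGTG occurred in 22 members (64.7%), against 41.4% of protein-coding genes. CACGTG, the E-box core bound by the MiT/TFE factors, which contains ACGTG, occurred in 4 members (11.8%), against 8.91% of protein-coding genes. Median GC content was 60% in the members' windows, against 56.3% in those of protein-coding genes, and its part in these shares was not tested. A match is a string of letters, and no binding was measured.

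Low oxygen changed many members, most of them upward. The kinase subunit genes Atg13 and Rb1cc1, the lipid supply genes Atg9a and Atg2b and the LC3 gene Map1lc3a rose 1.93-fold to 2.61-fold over both genotypes, and the transcription factor gene Tfeb fell 2.04-fold in KO and 2-fold in WT cells. In KO cells 14 of the 40 rose and 4 fell by limma's adjusted p over all 20791 genes, at a threshold of 0.05. In WT cells 16 rose and 1 fell. Of all genes tested, 21.4% rose and 18.3% fell in KO cells (39.7% in all), and 20.5% rose and 18.1% fell in WT cells (38.6%). The share of members called, 45% in KO and 42.5% in WT cells, was thus near that of all genes. The samples of the 2 groups did not overlap for 22 members in KO cells (49% of all genes) and for 24 in WT cells (49.9% of all genes). The median log2 change of the members was 0.19 in KO cells, against 0.03 over all genes, and 0.33 in WT cells, against 0.03. Called changes of at least 2-fold were seen for 6 members in KO and 4 in WT cells, and the share of all genes at that size is not given here. In WT cells Rb1cc1 and Tfeb came just short of that size, so these counts do not show a difference between the genotypes.

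The balance of rises and falls depended on scaling. With the median of each array as the reference in place of its 75th percentile, all genes shifted by -0.11 in KO and -0.15 in WT cells, and 8 members rose and 5 fell in KO cells, and 9 rose and 5 fell in WT cells. Among all genes called, rises then made up 40.9% in KO and 34.7% in WT cells, against 53.9% and 53.2% with the 75th percentile. Without KO low-oxygen replicate 2 the number called in KO cells was 11.

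The KO and WT comparisons share no samples, but they share an estimate of the spread and are not fully independent. Between them, 11 members rose in both (Atg12, Atg13, Atg14, Atg2a, Atg2b, Atg9a, Map1lc3a, Map1lc3b, Rb1cc1, Tax1bp1 and Wipi1) and Tfeb fell in both. Past the threshold in KO cells alone were 6, Atg4c, Tfe3 and Ulk2, which rose, and Atg4b, Atg7 and Sqstm1, which fell. Another 5 rose past it in WT cells alone, Atg101, Becn1, Gabarapl2, Nbr1 and Wipi2. In neither were 17 members called. How many of all genes rose or fell in both is not given here, so these counts have no background to stand against. Tests of the difference between genotypes, given further on, called none of the 40, so these lists do not show that the genotypes responded differently.

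**Figure D1:**
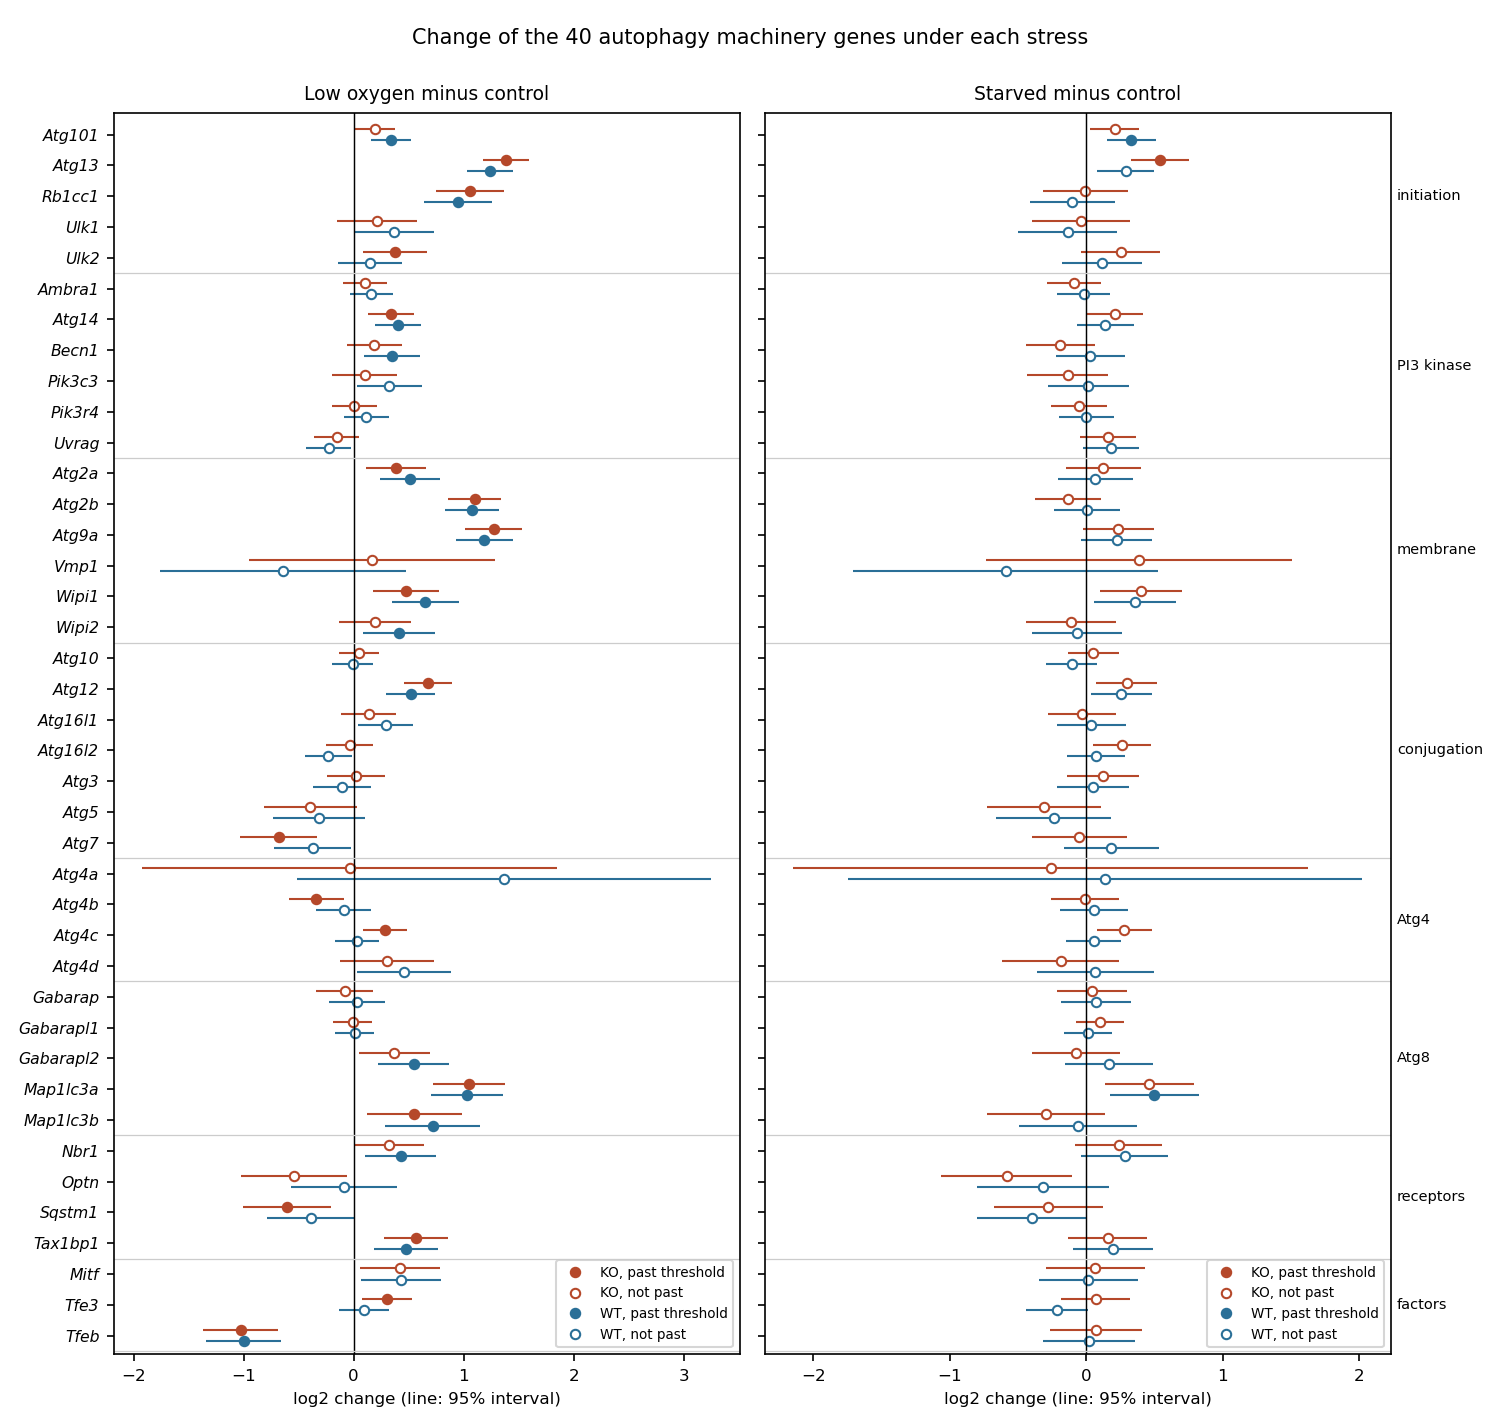
Log2 change of each of the 40 genes (rows, grouped by role) at low oxygen and after starvation against controls, for KO (red) and WT (blue) cells. Lines are 95% intervals of the limma fit over 18 samples and filled points are past the adjusted threshold, 18 in KO and 17 in WT cells at low oxygen, against 1 and 2 after starvation.

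Other cell types were looked for through markers, since in bulk samples fewer cells of a type and less RNA per cell cannot be told apart. Summed over the list, as multiples of the 75th percentile, the 7 macrophage markers came to 264 to 321 in KO cells at low oxygen, against 205 to 239 in KO controls, and to 298 to 315 in WT cells, against 211 to 239. The 8 neutrophil markers on the array came to 5.18 to 9.61 at low oxygen against 9.68 to 15.8 in KO controls, and to 6.12 to 9.68 against 12 to 18.7 in WT cells. The 6 markers of erythroid cells and megakaryocytes came to 15.5 to 32.6 at low oxygen, against 6.27 to 7.14 in KO controls, and to 15.9 to 33.2 against 5.7 to 6.32 in WT cells, with 3 of the 6 below background in all 18 samples and 1 of the 6 well above it in all samples of each group. Those of mast cells, basophils and eosinophils (3 of 8 below background throughout, and 2 or 3 well above it in all samples of a group) came to 2.82 to 4.06, against 0.69 to 0.792 in KO controls, and to 2.56 to 4.39, against 0.733 to 0.76 in WT controls. Macrophage markers were thus high throughout, and their sum was itself higher at low oxygen, without overlap with controls in either genotype. The neutrophil sum was lower and the other 2 sums higher at low oxygen. Lymphocyte markers (3 of 7 below background throughout) summed to 1.57 to 2.57 in KO cells and 1.78 to 2.38 in WT cells at low oxygen, against 2.25 to 2.37 in KO and 2.04 to 2.21 in WT controls. Of the 4 dendritic cell markers on the array, 2 were below background throughout. In all samples of a group 2 were well above it in KO cells at low oxygen and 1 in each other group, so few genes carry their sum. These markers summed to 69.2 to 90.3 in KO and 75.9 to 90.8 in WT cells at low oxygen, against 59.4 to 73.3 and 50.1 to 84.7 in their controls. All 7 stromal and endothelial markers were above background in every group, with sums of 3.08 to 3.4 in KO and 2.81 to 3.35 in WT cells at low oxygen, against 2.3 to 4.19 and 2.97 to 3.63 in their controls. Their part in the members' changes was not tested.

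Within slides, most changes at low oxygen kept their direction. On every slide that held both groups, 16 of the 18 members called in KO cells (3 slides) and all 17 called in WT cells (1 slide) changed the same way as in the fit. The arrays compared are also part of the fit, so this is no independent check. In KO cells the slides set low-oxygen replicate 3 against control replicate 1, and low-oxygen replicate 1 against control replicate 2. The last slide held second arrays of replicate 1 of both groups, so the 3 slides do not hold separate samples. KO low-oxygen replicate 2 and KO control replicate 3 were on no such slide. In WT cells the check sets a single array against another, low-oxygen replicate 2 and control replicate 1, and that control had stood apart. The other WT low-oxygen samples were on slides without a WT control, so most of the WT comparison lies between slides. The exceptions were Atg7, at -0.82 to 0.05, and Ulk2, at -0.03 to 0.44, both in KO cells. With slide as a block in the fit, 12 members rose and 4 fell in KO cells and 15 rose and 1 fell in WT cells. The block ended the calls of Atg2a (0.33, adjusted p = 0.0983), Atg4c (0.26, adjusted p = 0.0715) and Ulk2 (0.35, adjusted p = 0.0529) in KO cells and of Becn1 (0.35, adjusted p = 0.0841), Nbr1 (0.25, adjusted p = 0.242) and Wipi2 (0.32, adjusted p = 0.19) in WT cells. It brought past the threshold Mitf in KO (0.47, adjusted p = 0.026) and WT cells (0.58, adjusted p = 0.0186) and Atg4d in WT cells (0.68, adjusted p = 0.0396). Without the 3 samples that had stood apart, 12 rose and 4 fell in KO cells and 18 rose and 1 fell in WT cells.

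The kinase complex that initiates autophagy was among the roles with the largest changes. Of its 5 members 3 rose in each genotype and none fell. Counts by role, here and below, stand beside 21.4% of all genes rising and 18.3% falling in KO cells. In WT cells these shares were 20.5% and 18.1%. Each role holds few genes, so the roles are not ranked by their counts. Atg13, the subunit that links the kinase ULK1 to its scaffold, was at 3.67, 3.48 and 3.63 in KO cells at low oxygen, against 2.17, 2.28 and 2.17 in KO controls. In WT cells it was at 3.55, 3.74 and 3.67 at low oxygen, against 2.53, 2.26 and 2.45 in controls. Every low-oxygen sample lay above every control of its genotype by over 1 log2 unit. Atg13 thus rose 2.61-fold in KO cells (log2 change 1.38 ± 0.10, SE, limma adjusted p = 5.85e-08) and 2.36-fold in WT cells (1.24 ± 0.10, adjusted p = 1.93e-07).

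Rb1cc1 encodes FIP200, the scaffold of the same complex. Its levels at low oxygen were -0.36, -0.20 and -0.16 in KO cells, against -1.24, -1.28 and -1.37 in KO controls, and -0.29, -0.51 and -0.07 in WT cells, against -1.54, -1.02 and -1.15 in WT controls. Neither pair of groups overlapped, and the rise was 2.08-fold in KO cells (log2 change 1.05 ± 0.14, limma adjusted p = 3.93e-05) and 1.93-fold in WT cells (0.95 ± 0.14, adjusted p = 0.000113). Both Atg13 and Rb1cc1 stayed past the threshold in both genotypes under all 18 alternatives, which were 12 other settings and 6 fits that each left out 1 sample of the 2 groups.

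Atg101, which stabilises ATG13 in the complex, moved less. It was at 2.89, 2.89 and 2.86 in KO cells at low oxygen, against 2.71, 2.80 and 2.57 in KO controls, and at 3.03, 2.93 and 2.78 in WT cells, against 2.60, 2.49 and 2.62 in WT controls. The groups did not overlap in either genotype, and the change of 0.34 ± 0.08 in WT cells was called (limma adjusted p = 0.00491), while that of 0.19 ± 0.08 in KO cells was not (adjusted p = 0.0846). The WT call was lost under 2 of 18 alternatives (highest adjusted p = 0.083). Where a call was lost on leaving out a replicate, the adjusted p without it stands in brackets after it. Of the kinases, Ulk2 changed by 0.38 ± 0.14 in KO cells (adjusted p = 0.039), a call lost under 10 of 18 alternatives (highest adjusted p = 0.168), among them leaving out KO low-oxygen replicate 2 (0.0598), replicate 3 (0.146) or KO control replicate 3 (0.168). Without KO control replicate 3 the Ulk2 change in KO cells was 0.24. Ulk2 changed by 0.15 in WT cells, and Ulk1 by 0.21 in KO and 0.37 in WT cells, without passing the threshold.

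**Figure D2:**
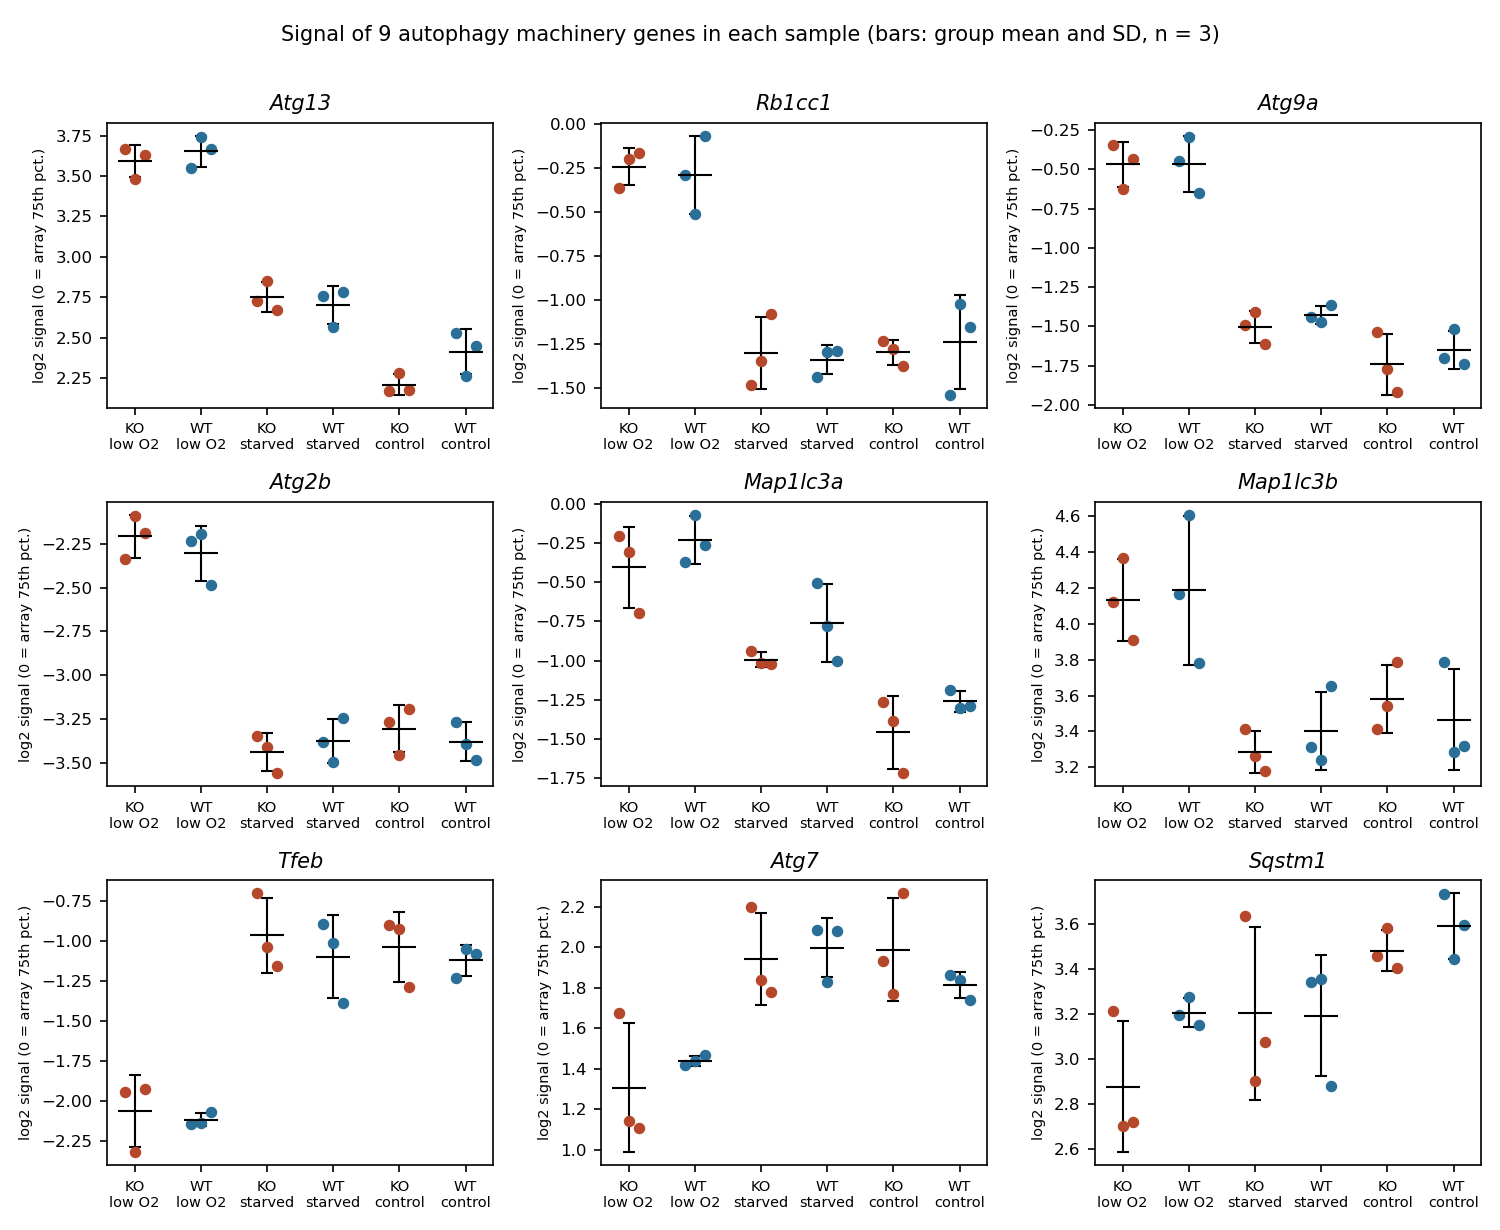
Log2 signal of 9 of the genes in each of the 18 samples (points), with the mean and SD of each group (bars, n = 3), where 0 is the 75th percentile of the array. For Atg13, Rb1cc1, Atg9a, Atg2b and Map1lc3a all low-oxygen samples lie above the controls of their genotype, and for Tfeb below them.

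The class III PI3 kinase complexes held few calls. Of their 5 subunits and Ambra1, 1 rose in KO cells and 2 rose in WT cells, and log2 changes of the 6 lay between -0.15 and 0.34 in KO and between -0.23 and 0.40 in WT cells. Atg14, the subunit that directs the kinase to autophagy, was at -0.03, 0.31 and 0.16 in KO cells at low oxygen, against -0.27, -0.22 and -0.08 in KO controls, and at 0.33, 0.34 and 0.10 in WT cells, against -0.12, -0.18 and -0.15 in WT controls. The groups did not overlap in either genotype. Its rise was 0.34 ± 0.10 in KO cells (limma adjusted p = 0.0117) and 0.40 ± 0.10 in WT cells (adjusted p = 0.00452). The KO call was lost under 4 of 18 alternatives (highest adjusted p = 0.125), among them leaving out KO low-oxygen replicate 2 (0.066) or KO control replicate 1 (0.0508), and the WT call under scaling by the array median (adjusted p = 0.1).

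Becn1 encodes beclin 1, the regulatory subunit shared by the complexes. It was at 0.70, 0.91 and 0.998 in KO cells at low oxygen, against 0.63, 0.78 and 0.64 in KO controls, and at 0.91, 1.11 and 0.89 in WT cells, against 0.64, 0.74 and 0.48 in WT controls. The KO groups overlapped and the WT groups did not. Becn1 rose by 0.35 ± 0.12 in WT cells (limma adjusted p = 0.0284), a call lost under 9 of 18 alternatives (highest adjusted p = 0.386), among them leaving out WT low-oxygen replicate 2 (0.108), WT control replicate 1 (0.0544) or replicate 3 (0.122), and changed by 0.19 ± 0.12 in KO cells (adjusted p = 0.224). Uvrag, which joins the kinase in endosomal traffic, changed by -0.15 in KO and -0.23 in WT cells. The catalytic subunit Pik3c3 changed by 0.10 and 0.33, Pik3r4 by 0.01 and 0.11, and Ambra1 by 0.10 and 0.16 in KO and WT cells, and none of these passed the threshold.

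Of the genes of membrane supply and lipid transfer, 4 of 6 rose in KO and 5 of 6 in WT cells, beside 21.4% and 20.5% of all genes rising. Among these calls, those of Atg2a in KO and Wipi2 in WT cells were lost under many alternatives, as given below. Atg9a, the scramblase of the vesicles that seed the membrane, was at -0.34, -0.63 and -0.43 in KO cells at low oxygen, against -1.53, -1.77 and -1.92 in KO controls. In WT cells the values were -0.45, -0.30 and -0.65, against -1.70, -1.51 and -1.74 in controls. All 6 low-oxygen samples were higher than all 6 controls. Atg9a rose 2.42-fold in KO cells (log2 change 1.27 ± 0.12, limma adjusted p = 1.11e-06) and 2.28-fold in WT cells (1.19 ± 0.12, adjusted p = 2.37e-06), and was called under all 18 alternatives in both.

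Atg2b is one of a pair of genes for the protein that transfers lipid into the growing membrane. Its low-oxygen levels of -2.34, -2.09 and -2.19 in KO cells stood against -3.26, -3.46 and -3.20 in KO controls, and those of -2.23, -2.19 and -2.49 in WT cells against -3.27, -3.39 and -3.48 in WT controls. The groups were apart in both genotypes. The rise was 2.14-fold in KO cells (log2 change 1.10 ± 0.11, limma adjusted p = 2.39e-06) and 2.11-fold in WT cells (1.08 ± 0.11, adjusted p = 3.21e-06). With normexp background correction the WT change was 0.70, which did not pass (adjusted p = 0.0564). Its paralog Atg2a rose by 0.39 ± 0.13 in KO cells (adjusted p = 0.0257) and 0.52 ± 0.13 in WT cells (adjusted p = 0.00513), and the KO call was lost under 8 of 18 alternatives (highest adjusted p = 0.123), among them leaving out KO low-oxygen replicate 1 (0.123), KO control replicate 1 (0.0577) or replicate 3 (0.0842).

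The WIPI proteins bind the lipid made by the PI3 kinase. Wipi1 was at -0.74, -0.89 and -0.89 in KO cells at low oxygen, against -1.06, -1.27 and -1.63 in KO controls, and at -0.59, -0.95 and -0.61 in WT cells, against -1.47, -1.27 and -1.37 in WT controls. Again no low-oxygen sample reached down to a control of its genotype. Wipi1 rose by 0.48 ± 0.14 in KO cells (limma adjusted p = 0.0134) and 0.65 ± 0.14 in WT cells (adjusted p = 0.00191), with the KO call lost under 3 of 18 alternatives (highest adjusted p = 0.0757), among them leaving out KO control replicate 3 (0.0658). Wipi2 rose by 0.41 ± 0.15 in WT cells (adjusted p = 0.0468), a call lost under 10 of 18 alternatives (highest adjusted p = 0.19), among them leaving out WT low-oxygen replicate 1 (0.0737), replicate 2 (0.135), replicate 3 (0.0682), WT control replicate 2 (0.161) or replicate 3 (0.0922), and changed by 0.20 in KO cells (adjusted p = 0.345). Vmp1, a scramblase of the endoplasmic reticulum, changed by 0.17 in KO and -0.64 in WT cells without passing the threshold. Single samples set those values, since Vmp1 was at 4.17 in KO low-oxygen replicate 1, 3.73 in WT low-oxygen replicate 2, 4.47 in WT starved replicate 1 and 3.73 in KO control replicate 3, against 4.90 to 5.68 in the other 14 samples.

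The conjugation genes, which attach ATG12 to ATG5 and lipid to ATG8 proteins, split in direction. Of 7, 1 rose and 1 fell in KO cells, and 1 rose in WT cells. Atg12, the ubiquitin-like protein joined to ATG5, was at 2.88, 2.97 and 2.87 in KO cells at low oxygen, against 2.26, 2.29 and 2.15 in KO controls, and at 2.89, 2.58 and 2.98 in WT cells, against 2.21, 2.32 and 2.36 in WT controls. It was higher in every low-oxygen sample than in any control. The rise was 1.6-fold in KO cells (log2 change 0.68 ± 0.10, limma adjusted p = 0.000106) and 1.43-fold in WT cells (0.52 ± 0.10, adjusted p = 0.00106), called under all 18 alternatives in both.

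Atg7 encodes the E1-like enzyme that activates both ATG12 and the ATG8 proteins. It was at 1.67, 1.14 and 1.11 in KO cells at low oxygen, against 1.93, 1.77 and 2.27 in KO controls, and at 1.42, 1.44 and 1.47 in WT cells, against 1.86, 1.84 and 1.74 in WT controls. Low-oxygen samples lay below the controls of their genotype in both, with KO replicate 1 the highest of them. Atg7 fell 1.6-fold in KO cells (log2 change -0.68 ± 0.16, limma adjusted p = 0.00358) and changed by -0.37 ± 0.16 in WT cells (adjusted p = 0.0834). Among the others, Atg5 changed by -0.39 in KO and -0.31 in WT cells, Atg16l1 by 0.14 and 0.29, and Atg16l2 by -0.04 and -0.23. The E2-like enzymes Atg3 and Atg10 changed by between -0.11 and 0.05 over both genotypes, and none of these 5 genes passed the threshold.

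ATG4 proteases trim ATG8 proteins before conjugation and release them from membranes. Atg4b was at -1.14, -1.40 and -1.27 in KO cells at low oxygen, against -0.83, -0.83 and -1.13 in KO controls, and at -1.11, -1.07 and -1.21 in WT cells, against -1.08, -1.02 and -1.01 in WT controls. Atg4c was at 0.65, 0.65 and 0.63 in KO cells, against 0.38, 0.40 and 0.29 in KO controls, and at 0.67, 0.53 and 0.54 in WT cells, against 0.63, 0.38 and 0.62 in WT controls. The KO groups were apart for both genes, in opposite directions, and the WT groups overlapped for both. In KO cells Atg4b fell by 0.34 on the log2 scale (limma adjusted p = 0.0309) and Atg4c rose by 0.29 (adjusted p = 0.0243). The call of Atg4b was lost under 9 of 18 alternatives (highest adjusted p = 0.265), among them leaving out KO low-oxygen replicate 2 (0.124), replicate 3 (0.0665), KO control replicate 1 (0.112) or replicate 2 (0.11). That of Atg4c was lost under 9 of 18 alternatives (highest adjusted p = 0.129), among them leaving out KO low-oxygen replicate 1 (0.0541), replicate 2 (0.063) or KO control replicate 3 (0.0729). Atg4d changed by 0.30 in KO and 0.46 in WT cells and was not called, while with slide as a block the WT change was called (0.68, adjusted p = 0.0396). Atg4a was at -1.98 in WT low-oxygen replicate 1, against -7.38 to -5.71 in the other 17 samples. It was well above background in 1 of 3 samples of that group and in 0 of 3 WT controls, and no change is given for it.

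Within the ATG8 family, of 5 genes, 2 rose in KO and 3 in WT cells. The LC3 genes rose in both, and Gabarap and Gabarapl1 were called in neither. Map1lc3a, which encodes LC3A, was at -0.21, -0.31 and -0.70 in KO cells at low oxygen, against -1.27, -1.39 and -1.72 in KO controls. In WT cells it was at -0.37, -0.07 and -0.26, against -1.19, -1.30 and -1.29 in controls. The groups did not overlap, and the rise was 2.07-fold in KO cells (log2 change 1.05 ± 0.15, limma adjusted p = 6.76e-05) and 2.04-fold in WT cells (1.03 ± 0.15, adjusted p = 9.23e-05), called under all 18 alternatives in both.

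Map1lc3b encodes LC3B, the form most often used as a marker of autophagosomes. It was at 4.12, 4.37 and 3.91 in KO cells at low oxygen, against 3.41, 3.54 and 3.78 in KO controls, and at 4.17, 4.61 and 3.78 in WT cells, against 3.79, 3.29 and 3.32 in WT controls. The WT groups overlapped slightly, and the KO groups did not. Map1lc3b rose 1.47-fold in KO cells (limma adjusted p = 0.0411) and 1.65-fold in WT cells (adjusted p = 0.0108). The KO call was lost under 11 of 18 alternatives (highest adjusted p = 0.158), among them leaving out KO low-oxygen replicate 1 (0.0775), replicate 2 (0.158), KO control replicate 1 (0.134) or replicate 2 (0.0985). The WT call was lost under 2 of 18 alternatives (highest adjusted p = 0.0684), among them leaving out WT low-oxygen replicate 2 (0.0583).

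Of the GABARAP genes, Gabarapl2 (GATE-16) was at 3.39, 3.79 and 3.36 in KO cells at low oxygen, against 3.08, 2.96 and 3.38 in KO controls, and at 3.66, 3.72 and 3.37 in WT cells, against 3.29, 2.94 and 2.87 in WT controls. The KO groups overlapped and the WT groups did not. It rose by 0.55 ± 0.15 in WT cells (limma adjusted p = 0.0101), a call lost under 3 of 18 alternatives (highest adjusted p = 0.102), among them leaving out WT control replicate 3 (0.0502), and changed by 0.37 ± 0.15 in KO cells (adjusted p = 0.0645). Gabarap changed by -0.08 in KO cells (95% interval -0.34 to 0.17) and 0.03 in WT cells (-0.23 to 0.29). For Gabarapl1 the changes were -0.01 (-0.18 to 0.17) in KO and 0.01 (-0.17 to 0.19) in WT cells. All 4 intervals include 0.

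Cargo receptors bind ubiquitin or other tags on cargo and ATG8 proteins on the membrane. Tax1bp1 was at 2.74, 2.77 and 2.85 in KO cells at low oxygen, against 2.30, 2.34 and 2.02 in KO controls, and at 2.53, 2.95 and 2.75 in WT cells, against 2.17, 2.46 and 2.19 in WT controls. The groups did not overlap in either genotype. It rose by 0.57 ± 0.14 in KO cells (limma adjusted p = 0.00387) and 0.47 ± 0.14 in WT cells (adjusted p = 0.0127), with the WT call lost under 3 of 18 alternatives (highest adjusted p = 0.0756), among them leaving out WT low-oxygen replicate 2 (0.0619).

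Sqstm1, which encodes p62, went the other way. It was at 3.21, 2.70 and 2.72 in KO cells at low oxygen, against 3.45, 3.58 and 3.41 in KO controls, and at 3.19, 3.28 and 3.15 in WT cells, against 3.73, 3.44 and 3.59 in WT controls. All low-oxygen samples lay below all controls. Sqstm1 fell 1.52-fold in KO cells (log2 change -0.61 ± 0.19, limma adjusted p = 0.0178), a call lost under 4 of 18 alternatives (highest adjusted p = 0.0751), among them leaving out KO low-oxygen replicate 2 (0.0751), replicate 3 (0.0682) or KO control replicate 2 (0.0625). In WT cells the change of -0.38 ± 0.19 did not pass (adjusted p = 0.121).

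Nbr1, a receptor related to p62, was at -1.50, -1.46 and -1.23 in KO cells at low oxygen, against -1.83, -1.50 and -1.82 in KO controls, and at -1.45, -1.11 and -1.39 in WT cells, against -1.55, -1.96 and -1.73 in WT controls. The low-oxygen samples lay above the controls in both genotypes, in KO cells by a narrow margin. Nbr1 changed by 0.32 ± 0.15 in KO cells (limma adjusted p = 0.102) and rose by 0.43 ± 0.15 in WT cells (adjusted p = 0.035), the WT call being lost under 9 of 18 alternatives (highest adjusted p = 0.242), among them leaving out WT low-oxygen replicate 2 (0.138), replicate 3 (0.0501), WT control replicate 2 (0.151) or replicate 3 (0.073). With slide as a block the Nbr1 change in WT cells was 0.25, adjusted p = 0.242. Optineurin (Optn) changed by -0.54 in KO cells and -0.09 in WT cells and was not called.

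The MiT/TFE factors bind the E-boxes of many lysosome and autophagy genes. Tfeb was at -1.95, -2.32 and -1.92 in KO cells at low oxygen, against -0.90, -0.92 and -1.29 in KO controls. In WT cells it was at -2.14, -2.14 and -2.07, against -1.23, -1.05 and -1.08 in controls. Every low-oxygen sample was below every control. Tfeb fell 2.04-fold in KO cells (log2 change -1.03 ± 0.16, limma adjusted p = 0.000115) and 2-fold in WT cells (-0.998 ± 0.16, adjusted p = 0.000159), called under all 18 alternatives in both.

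Tfe3 was at 5.02, 5.02 and 4.90 in KO cells at low oxygen, against 4.70, 4.66 and 4.67 in KO controls, and at 4.96, 4.72 and 5.07 in WT cells, against 4.86, 4.70 and 4.89 in WT controls. The KO groups were apart and the WT groups overlapped. It rose by 0.30 ± 0.11 in KO cells (limma adjusted p = 0.034), a call lost under 14 of 18 alternatives (highest adjusted p = 0.542), among them leaving out KO low-oxygen replicate 1 (0.0871), replicate 2 (0.0925), KO control replicate 1 (0.0651), replicate 2 (0.0854) or replicate 3 (0.0669), and changed by 0.10 in WT cells. Mitf changed by 0.42 ± 0.17 in KO cells (adjusted p = 0.0631) and 0.43 ± 0.17 in WT cells (adjusted p = 0.0566) on its brighter probe, and passed in both with slide as a block (KO 0.47, adjusted p = 0.026, and WT 0.58, adjusted p = 0.0186).

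Starvation changed few of the 40 genes. In KO cells 1 member rose (13.5% of all genes tested were called, 7.13% rising and 6.37% falling) and in WT cells 2 rose (12.5%, 6.48% rising and 6% falling), with no member falling in either. The shares of members called, 2.5% and 5%, were below those of all genes. At an unadjusted p under 0.05, 9 members in KO and 5 in WT cells passed. The share of all genes at that p is not given here, so whether these counts are many or few cannot be said. The groups did not overlap for 10 members in KO cells (30.7% of all genes) and 11 in WT cells (29.7% of all genes). Median log2 changes were 0.06 in KO cells, against 0.01 over all genes, and 0.05 in WT cells, against 0.02, and the WT median was -0.025 when arrays were scaled by their median. Neutrophil markers summed to 5.66 to 9.06 in starved KO and 7.17 to 9.3 in starved WT cells, and markers of erythroid cells and megakaryocytes to 10.2 to 13.3 and 12.3 to 15.3, beside the control sums given above, and their part was not tested.

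Atg13 was the member that rose in starved KO cells, at 2.73, 2.85 and 2.67, against 2.17, 2.28 and 2.17 in KO controls. In starved WT cells it was at 2.76, 2.57 and 2.78, against 2.53, 2.26 and 2.45 in WT controls. The starved samples lay above the controls in both genotypes. Atg13 rose 1.46-fold in KO cells (log2 change 0.54 ± 0.10, limma adjusted p = 0.00178), a call lost with normexp background correction (adjusted p = 0.124), and changed by 0.29 ± 0.10 in WT cells (adjusted p = 0.0727).

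Map1lc3a and Atg101 were the members called in starved WT cells. Map1lc3a was at -0.94, -1.02 and -1.02 in starved KO cells, against -1.27, -1.39 and -1.72 in KO controls, and at -0.50, -0.78 and -1 in starved WT cells, against -1.19, -1.30 and -1.29 in WT controls. Its rise was 0.50 ± 0.15 in WT cells (limma adjusted p = 0.0455), and the change of 0.46 ± 0.15 in KO cells missed the threshold (adjusted p = 0.06). With slide as a block the KO change passed as well (0.49, adjusted p = 0.0386). The groups did not overlap in either genotype. The WT call was lost under 10 of 18 alternatives (highest adjusted p = 0.217), among them leaving out WT control replicate 1 (0.0725), replicate 2 (0.127), replicate 3 (0.127), WT starved replicate 1 (0.217) or replicate 2 (0.102).

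For Atg101, starved KO samples were at 2.90, 2.94 and 2.86, against 2.71, 2.80 and 2.57 in KO controls, and starved WT samples at 2.91, 2.91 and 2.87, against 2.60, 2.49 and 2.62 in WT controls. Here too starved samples lay above the controls in both genotypes, with changes of 0.21 ± 0.08 in KO cells (limma adjusted p = 0.127) and 0.33 ± 0.08 in WT cells (adjusted p = 0.0174). The WT call was lost under 7 of 18 alternatives (highest adjusted p = 0.235), among them leaving out WT control replicate 2 (0.0805), WT starved replicate 1 (0.0636) or replicate 2 (0.0573). Leaving out 1 sample moved the count in starved KO cells to 3 without KO control replicate 1 or KO starved replicate 2. In starved WT cells it moved the count to 1 without WT control replicate 1 or 3, and to 0 without WT control replicate 2 or WT starved replicate 1 or 2. Without the 3 samples that had stood apart it was 1 in KO and 2 in WT cells, and the called genes changed the same way on each of the 3 slides that held both groups.

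Other members whose starved samples lay apart from the controls in both genotypes were Atg12, Atg14 and Wipi1, with changes in KO and WT cells of 0.30 and 0.26, 0.21 and 0.14, and 0.40 and 0.36. None of the 3 passed the threshold. Tfeb changed by 0.07 in starved KO cells (95% interval -0.27 to 0.41) and 0.02 in starved WT cells (-0.32 to 0.36), and Rb1cc1 by -0.01 (-0.32 to 0.30) and -0.10 (-0.41 to 0.21). Sqstm1 changed by -0.28 and -0.40 and Optn by -0.58 and -0.32, without passing. Tfe3 had no value in KO starved replicate 2, and its fit there used 2 samples.

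Low oxygen set directly against starvation called 15 members in KO cells (37.1% of all genes, 19.2% higher and 17.9% lower), 10 of them higher and 5 lower at low oxygen. In WT cells it called 16 (38.1% of all genes, 19.8% higher and 18.3% lower), 12 higher and 4 lower. Higher in both genotypes were 7, Atg13, Atg2b, Atg9a, Becn1, Map1lc3a, Map1lc3b and Rb1cc1, and lower in both were 4, Atg16l2, Atg7, Tfeb and Uvrag. In WT cells the Becn1 call was lost under 12 of 18 alternatives (highest limma adjusted p = 0.175), among them every fit without 1 sample (0.0504 to 0.149). In KO cells it was lost under 7 of 18 alternatives (highest adjusted p = 0.116). Other WT calls lost were those of Map1lc3a under 4 of 18 alternatives, Atg7 under 3, and Atg2b and Map1lc3b under 1 each. These contrasts share their low-oxygen samples with those against controls, so the values are given side by side and not counted as further evidence. The share of all genes called in both genotypes is not given here either. The counts were 12 in KO and 11 in WT cells with slide as a block, which ended the calls of Atg16l2, Becn1 and Tax1bp1 in KO cells and of Atg14, Atg2a, Atg7, Becn1, Tfe3, Ulk1 and Wipi2 in WT cells and added Gabarapl2 and Mitf in WT cells. They were 16 in KO and 15 in WT cells without the 3 samples that had stood apart. Within slides (2 in KO and 1 in WT cells), all called members of this contrast kept their direction, on arrays that are also part of the fit. With arrays scaled by their median, 7 members were higher and 5 lower in KO cells and 8 higher and 4 lower in WT cells. Rb1cc1 differed by 1.06 ± 0.14 in KO cells (limma adjusted p = 4.54e-05) and 1.05 ± 0.14 in WT cells (adjusted p = 4.94e-05), and Atg13 by 0.84 ± 0.10 (adjusted p = 1.03e-05) and 0.95 ± 0.10 (adjusted p = 3.39e-06). Tfeb differed by -1.10 ± 0.16 (adjusted p = 7.42e-05) in KO and -1.02 ± 0.16 (adjusted p = 0.000143) in WT cells.

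Uvrag and Atg16l2 were called in this direct contrast in both genotypes and against controls in neither. Uvrag was at 2.75, 2.91 and 3.00 in KO cells at low oxygen, against 3.18, 3.28 and 3.13 in starved KO cells, and at 2.91, 2.91 and 2.65 in WT cells at low oxygen, against 3.21, 3.21 and 3.28 in starved WT cells. No low-oxygen sample reached a starved one, and the difference was -0.31 ± 0.10 in KO (limma adjusted p = 0.0189) and -0.41 ± 0.10 in WT cells (adjusted p = 0.00345). Uvrag lost its KO call under 4 of 18 alternatives (highest adjusted p = 0.171), among them leaving out KO low-oxygen replicate 1 (0.083) or KO starved replicate 2 (0.0781), and its WT call under 1 of 18 alternatives (highest adjusted p = 0.0774). Atg16l2, a paralog of the subunit that directs lipidation, differed by -0.30 ± 0.10 in KO cells (adjusted p = 0.029) and -0.30 ± 0.10 in WT cells (adjusted p = 0.0262). The KO groups touched and the WT groups did not overlap. In KO cells its call was lost under 8 of 18 alternatives (highest adjusted p = 0.226), among them leaving out KO low-oxygen replicate 1 (0.0509), replicate 2 (0.127), KO starved replicate 1 (0.143) or replicate 3 (0.0636). In WT cells it was lost under 9 of 18 alternatives (highest adjusted p = 0.266), among them leaving out WT low-oxygen replicate 1 (0.072), replicate 3 (0.0566), WT starved replicate 2 (0.0695) or replicate 3 (0.0673).

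Between KO and WT cells, by limma, no member was called in any condition. None passed the threshold between KO and WT cells at low oxygen, after starvation or in controls, nor were any of the 20791 genes (0% in each). Averaged over the 3 conditions, no member and 5 of all genes were called (0.024%). The interaction terms, which test whether KO and WT cells responded differently to low oxygen or to starvation, called none of the members and 0% of all genes. At an unadjusted p under 0.05, 0 members passed at low oxygen (1.69% of all genes), after starvation (1.9%) and in controls (1.39%). In the interactions 0 passed for low oxygen (1.11% of all genes) and 0 for starvation (1.03%). With shares this low over all genes, counts of 0 say little about the members. In the average over conditions 1 member passed, where 2.44% of all genes did. That one was Map1lc3a, at -0.20 ± 0.09 (limma adjusted p = 1). In the 3 single conditions, 39 of the 40 differences were each within 0.5 log2 units of 0. The exceptions were Atg4a, at -1.58 at low oxygen and -0.58 after starvation, which was well above background in 1 of 3 samples of each of these 4 groups, and Vmp1, at -0.70 in controls, where KO replicate 3 was low.

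For the genes with the largest responses the genotype difference at low oxygen was small beside the response. KO minus WT at low oxygen was -0.06 for Atg13 (95% interval -0.27 to 0.15), -0.002 for Atg9a (-0.26 to 0.26), 0.05 for Rb1cc1 (-0.26 to 0.36) and 0.05 for Tfeb (-0.28 to 0.39). The interaction for low oxygen was 0.15 for Atg13 (-0.15 to 0.44, limma adjusted p = 1) and -0.31 for Atg7 (-0.80 to 0.18, adjusted p = 1). A missed threshold does not show that the genotypes act alike, and for 38 of the 40 genes in each single condition the interval lay within 1 log2 unit of 0.

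**Figure D3:**
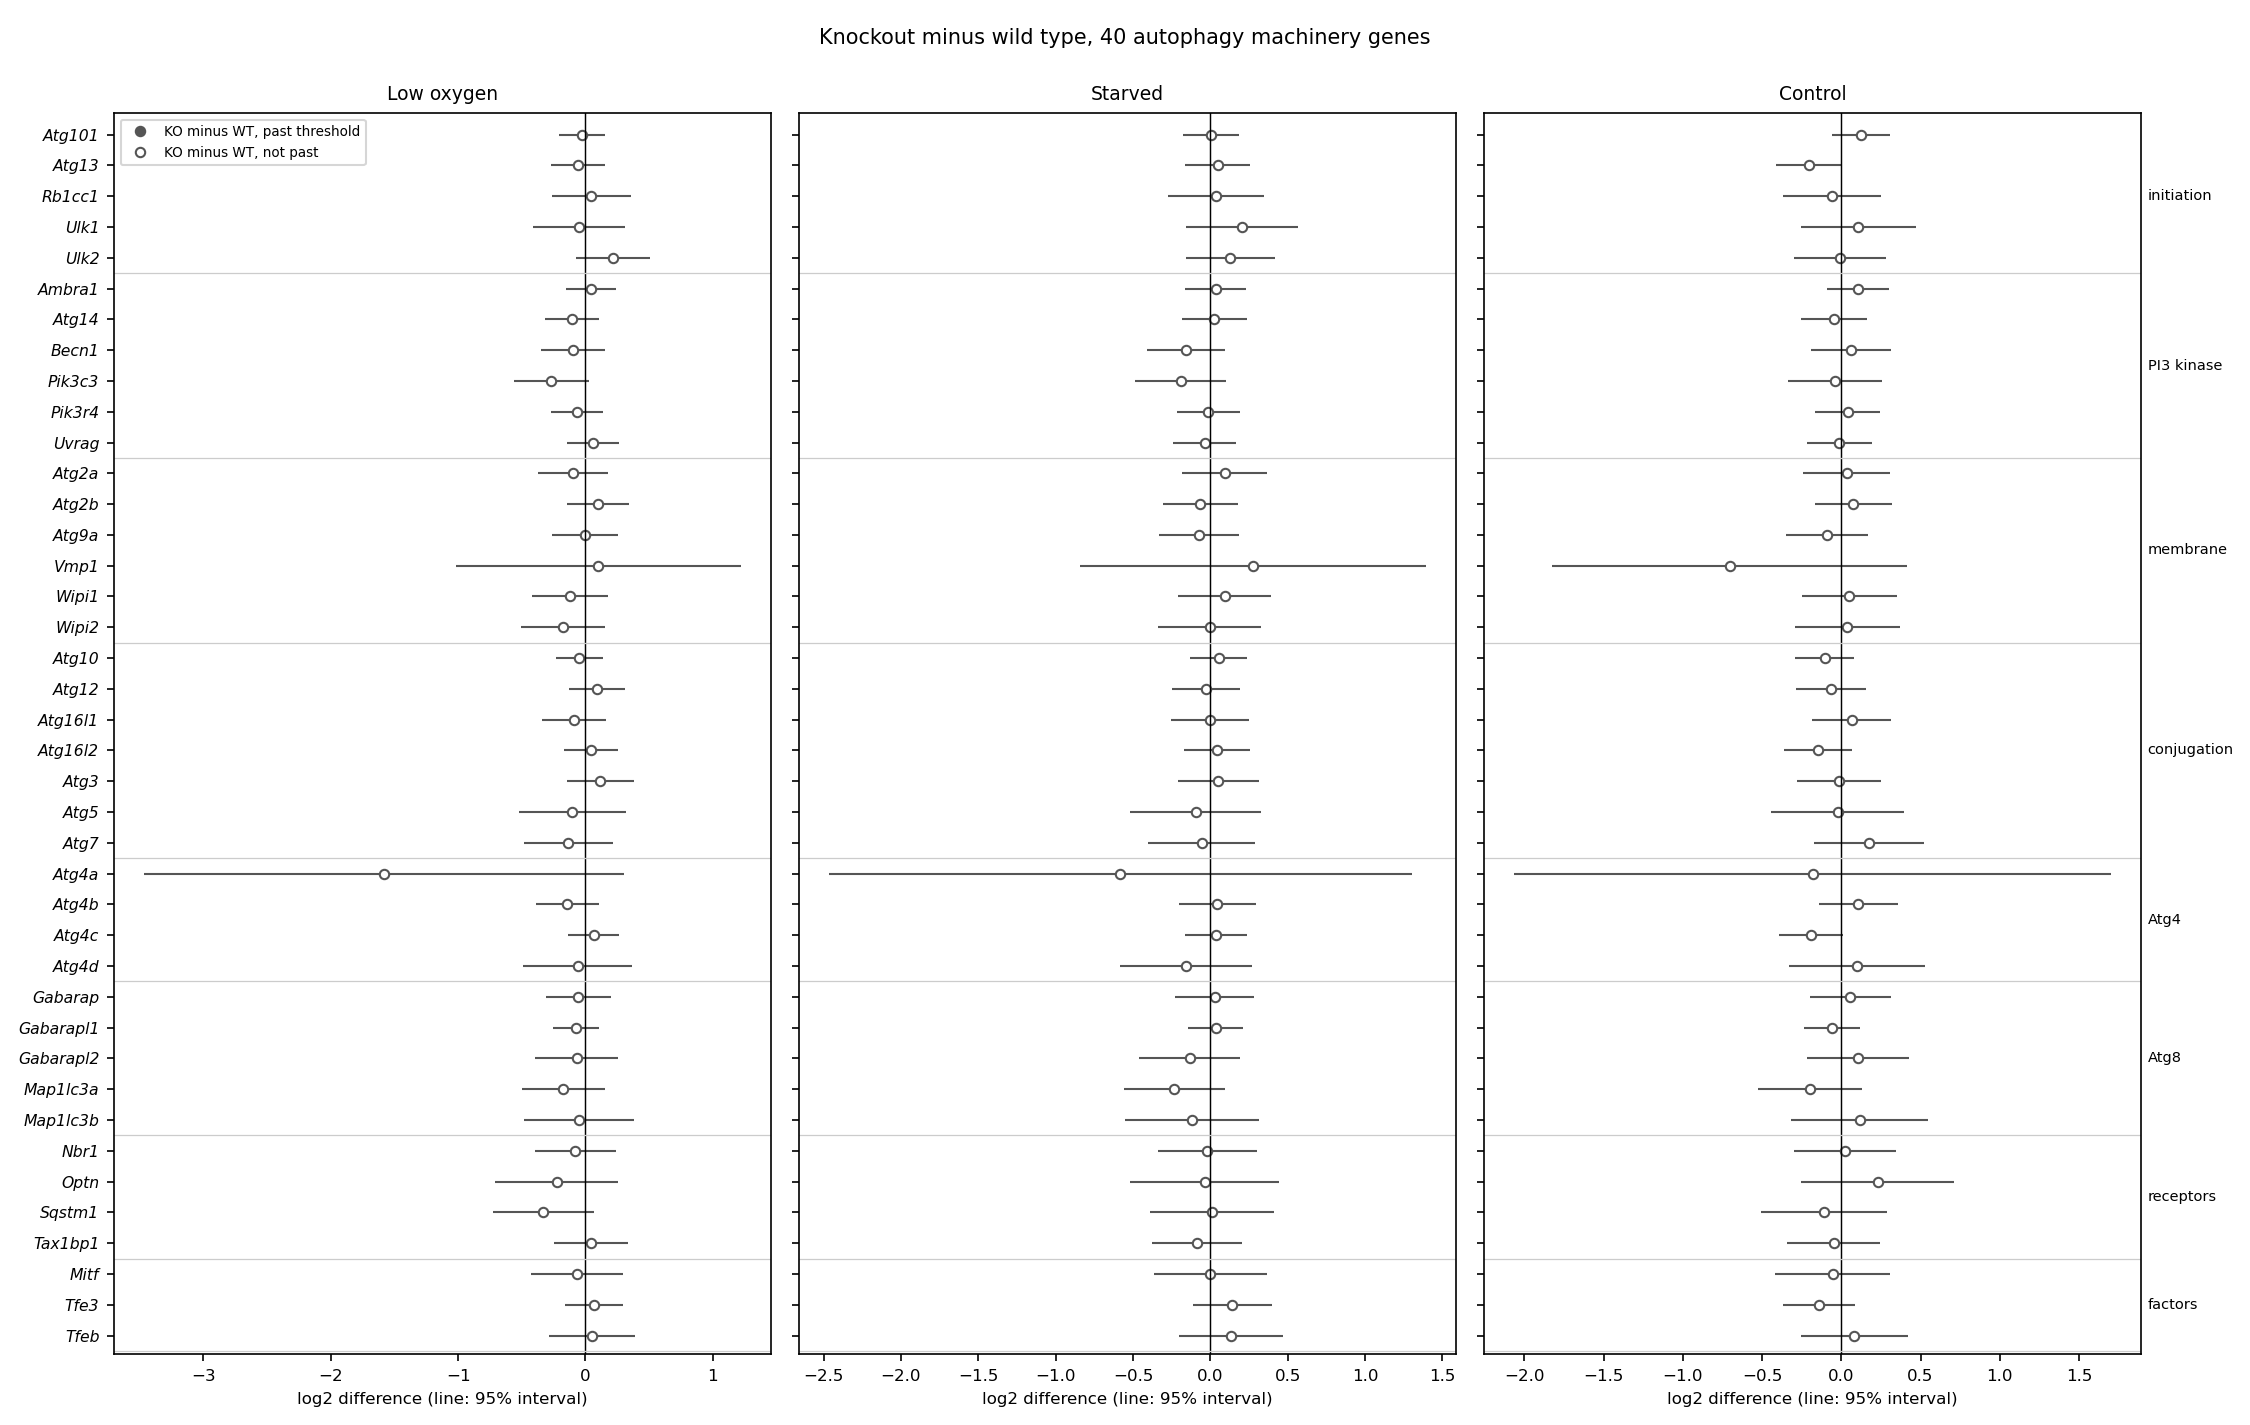
KO minus WT log2 difference of the 40 genes at low oxygen, after starvation and in controls (open points: none past the threshold), with 95% intervals. All lie within 0.5 of 0 but Atg4a at low oxygen and after starvation and Vmp1 in controls.

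A second probe was on the array for 13 members. At low oxygen the probes had the same sign for 12 of the 13 in KO cells and 11 in WT cells, and some members were called on 1 probe alone. Called on the brighter probe alone were Atg4c, Tfe3 and Wipi1 in KO cells and Wipi1 in WT cells. In KO cells their dimmer probes changed by 0.20 (limma adjusted p = 0.159), 0.14 (adjusted p = 0.442) and 0.42 (adjusted p = 0.0767). For Wipi1 in WT cells the dimmer probe changed by 0.42 (adjusted p = 0.0781). Others were called on the dimmer probe alone. The dimmer Mitf probe rose by 0.86 ± 0.24 in KO cells (limma adjusted p = 0.00995, over all probes) and 1.06 ± 0.24 in WT cells (adjusted p = 0.0028), against 0.42 and 0.43 on the brighter probe, which did not pass without the slide block. Mitf has several alternative first exons, and where these probes lie was not analysed here. For Atg7 the dimmer probe fell by 1.26 on the log2 scale in KO cells (adjusted p = 3.81e-06) and by 0.87 in WT cells (adjusted p = 0.000142), so that on it the fall was past the threshold in both genotypes. The dimmer Rb1cc1 probe rose by 1.44 in KO and 1.28 in WT cells. Pik3c3 rose by 0.37 in WT cells on its dimmer probe (adjusted p = 0.00215), and Ulk2 by 0.35 in KO (adjusted p = 0.0129) and 0.28 in WT cells (adjusted p = 0.04).

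After starvation the 2 probes had the same sign for 6 of 13 members in KO cells and 10 in WT cells. No brighter probe and 2 dimmer probes were called in each genotype, those of Atg12 and Wipi2. Of all genes, 13.5% in KO and 12.5% in WT cells were called after starvation. The share of all probes called is not given here, so these counts are not read as many or few. The dimmer Atg12 probe rose by 0.49 in KO (limma adjusted p = 0.0101) and 0.43 in WT cells (adjusted p = 0.021), against 0.30 and 0.26 on the brighter one. The dimmer Wipi2 probe rose by 0.46 in KO (adjusted p = 0.0277) and 0.42 in WT cells (adjusted p = 0.0473), while the brighter one changed by -0.11 and -0.07. For Wipi2 the answer thus depended on the probe.

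**Figure D4:**
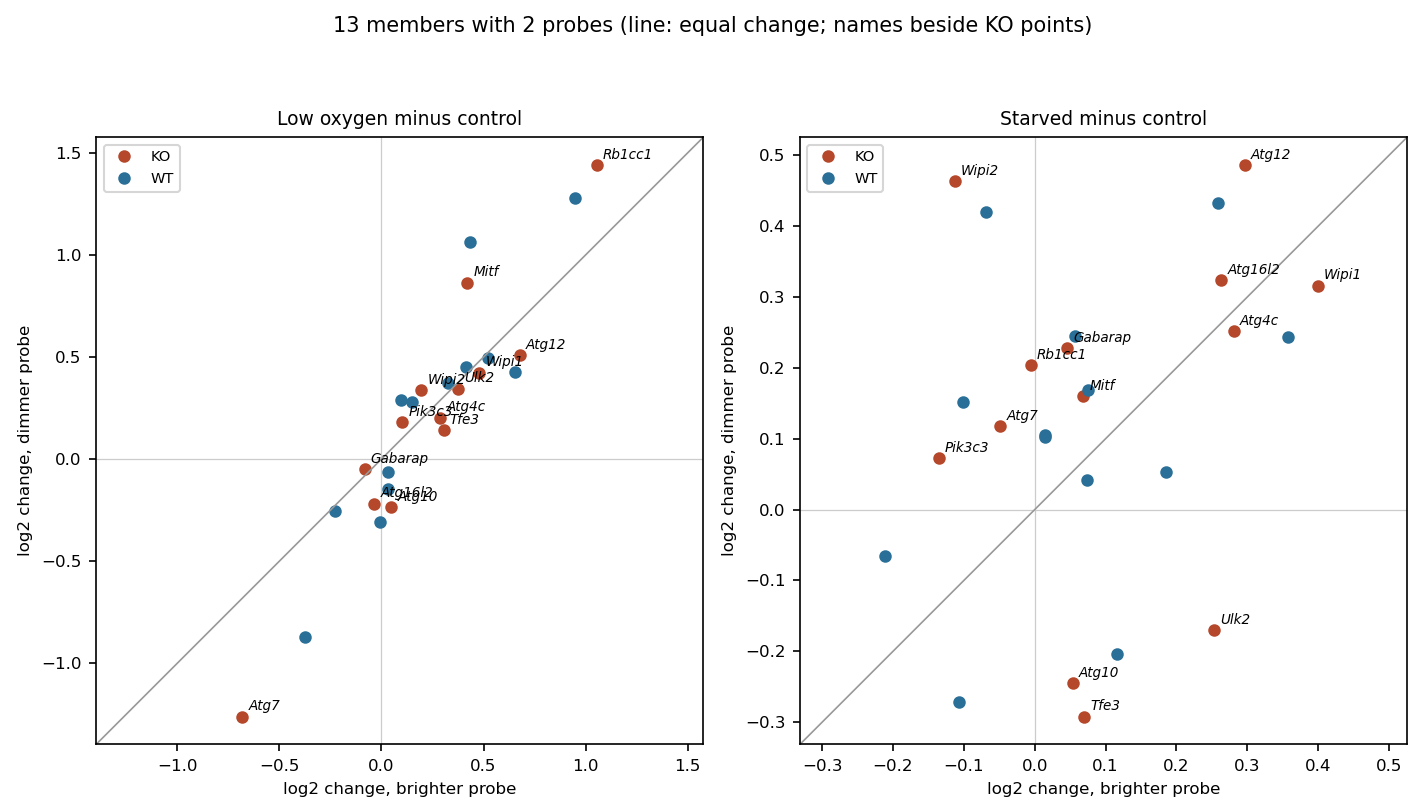
Log2 change on the dimmer probe (vertical) against the brighter probe (horizontal) for the 13 genes with 2 probes, at low oxygen and after starvation, in KO (red, named) and WT (blue) cells. Mitf and Rb1cc1 lie above the line of equal change at low oxygen and Atg7 below it, and Wipi2 lies far above it after starvation.

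Other genes of the pathway are counted here by list, beside the 39.7% of all genes called in KO and 38.6% in WT cells at low oxygen. The lists were drawn up with earlier results of these data known. The genes named, here and in the next paragraph, have the smallest adjusted p of their list in a response. They were thus picked by their change and do not stand for their list. Of 38 other autophagy genes tested, 10 rose and 5 fell in KO cells and 10 rose and 5 fell in WT cells, a share of 39.5% in each, near that of all genes. The mitophagy receptors Bnip3 and Bnip3l, known HIF targets, rose by 4.64 and 2.59 in KO cells and by 4.48 and 2.50 in WT cells. Pink1, a kinase that marks damaged mitochondria, rose by 1.17 in KO and 1.41 in WT cells. Vps33a, which acts in fusion with lysosomes, changed by -0.82 and -0.78, falls past the threshold. Of 31 genes of nutrient and energy sensing, 8 rose and 8 fell in KO cells (51.6%, against 39.7% of all genes) and 7 rose and 7 fell in WT cells (45.2%, against 38.6%). Ddit4, an inhibitor of mTORC1 signalling, rose by 2.91 in KO and 2.85 in WT cells. Sesn1, which also restrains mTORC1, changed by -1.44 and -1.33, and Prkaa2, a catalytic subunit of AMPK, by -0.93 and -1.11, all falls past the threshold. Of 10 hypoxia reference genes 9 rose in each genotype (90%).

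Of 27 lysosome genes, 4 rose and 5 fell at low oxygen in each genotype, a share of 33.3%, against 39.7% of all genes in KO and 38.6% in WT cells. Clcn7, a lysosomal chloride transporter, was among those that fell, at -0.90 in KO and -0.63 in WT cells. After starvation 5 rose in KO cells (18.5%) and 7 in WT cells (25.9%) and none fell. Of all genes, 7.13% rose in KO cells (13.5% called in either direction) and 6.48% in WT cells (12.5% called). Atp6v0d2, a subunit of the proton pump, rose by 2.20 in starved KO and 2.42 in starved WT cells. Gpnmb, a glycoprotein known as a MiT/TFE target, rose by 1.51 and 1.31, and the protease gene Ctsl by 0.85 and 0.76. After starvation, other autophagy genes gave 3 rises and 3 falls in KO and 4 rises and 2 falls in WT cells (15.8% in each), with Bnip3l at 0.70 and 0.63 and Trp53inp2 at 0.54 and 0.41. Sensing genes gave 4 rises and 2 falls in KO (19.4%) and 3 rises and 1 fall in WT cells (12.9%), with Prkab2 of AMPK at -0.67 and -0.70, both past the threshold. No list was tested as a set.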

How the data were processed

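RNA of 18 samples was measured on 20 Agilent 1-colour arrays (design built on mm9) on 5 slides. The authors deposited scanner files whose intensity values are background-subtracted and detrended spot signals from Feature Extraction 10.7.3.1, per the file headers, and a table of log2 values whose columns look quantile normalized and whose steps no source used here states. The submitters' processing notes name limma without a version. The labels name biotin as the label and the protocol Cy3. The normexp alternative used the median spot signal, since the files give no mean signal.

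Control spots and spots marked as outliers were left out, which left 0.117% of values missing. Values were taken as log2 of the processed signal minus that of the 75th percentile of each array. The 2 samples hybridised on 2 arrays (replicate 1 of KO low oxygen and of KO controls) were averaged. The brightest probe stood for a gene, and genes needed 3 samples well above background and 2 values in each group. Of 39429 probes, 26049 matched a RefSeq mouse symbol through their accession. A model of 6 group means over 18 samples was fitted with limma 3.58.1 in R 4.3.3 (12 residual and 2.48 prior degrees of freedom), with Benjamini-Hochberg adjustment over 20791 genes at 0.05. On simulated data for WT low oxygen against control, 20501 genes were run and 200 of them were given a change. Of changes of -1 and 1 on the log2 scale, 66% and 68% were called. The shares were 20% for -0.5 and 14% for 0.5, and 0.0197% of unchanged genes were called. In the data 38.6% of genes were called, far more than the simulation changed, so these shares need not hold there.

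Members and lists were chosen with earlier results of these data known. Given in full are, in each role, up to 3 members past the threshold in a response to stress, in order of their smallest adjusted p. Of each other list, up to 3 such genes per response are named, and not all of them are printed. Whether samples with the same number came from the same mouse is not given. The correlation of deviations between same-numbered samples ran from -0.33 to 0.48 (median 0.055), with 15 of 45 pairs over 0.1. Between samples with different numbers 19 of 90 pairs were over 0.1 (median -0.036). Same-numbered pairs ran from 0.003 to 0.22 (WT) and 0.064 to 0.25 (KO) for starvation against control. For low oxygen they ran from -0.075 to 0.29 (WT) and -0.087 to 0.05 (KO). These values do not settle whether samples were paired. The main fit did not pair them, and a replicate block was run as an alternative. Alternatives changed the background correction, the scaling, the source of values, the filter, the probe rule, the arrays, the blocks and the samples.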

Additional observations from a re-analysis of the deposited data

Results flagged for a closer look

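For 3 members all starved samples of one genotype lay on the opposite side of their control mean from all starved samples of the other. Gabarapl2 changed by -0.0756 in starved KO cells and by 0.17 in starved WT cells, and the interaction term was -0.24 ± 0.21 (limma adjusted p = 1). Tfe3 changed by 0.0701 in starved KO cells, where 1 sample has no value, and by -0.21 in starved WT cells, with an interaction of 0.28 ± 0.16 (adjusted p = 1). Vmp1 changed by 0.388 in starved KO cells and by -0.59 in starved WT cells, with an interaction of 0.98 ± 0.74 (adjusted p = 1). Vmp1 was low in KO control replicate 3 (3.73), which sets its KO control mean. None of the 3 interactions passed the threshold.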

How the results depend on the processing

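Of 69 calls of members in the 6 responses and direct contrasts, 29 held under every alternative run for them, 40 were lost under at least 1, and 0 reversed. The number kept was 42 with normexp background correction, 64 with quantile normalization, 47 with array-median scaling, 62 from the authors' table, 69 with a filter on all 18 samples, 49 with no filter, 64 with the mean of probes, 62 with the first array alone, 53 with slide as a block, 44 with only the groups compared and 60 without the 3 samples that had stood apart. With the replicate block 66 were kept, and the count in starved KO cells was 3 in place of 1. In KO cells at low oxygen the count of 18 was 11 with normexp and 11 with only the groups compared, and 11 to 15 without 1 sample. In WT cells at low oxygen it was 12 to 18 without 1 sample. In starved KO cells it was 3 with quantile normalization, 4 from the authors' table, 2 with the filter on all 18 samples, the mean of probes, the first array or slide as a block, and 1 to 3 without 1 sample. In starved WT cells the count of 2 was 1 with normexp, the authors' table or the first array, 0 with array-median scaling, no filter or only the groups compared, and 0 to 2 without 1 sample. For low oxygen against starvation in WT cells the count of 16 was 8 with normexp, 9 with only the groups compared and 11 to 17 without 1 sample, and in KO cells it was 11 to 13 without 1 sample. The members' median log2 change in KO cells at low oxygen was 0.26 with normexp, 0.087 with array-median scaling and 0.20 to 0.24 without 1 sample. In WT cells at low oxygen it was 0.25, 0.18 and 0.23 to 0.40. In starved KO cells it was 0.010 to 0.085 without 1 sample. In starved WT cells it was 0.036 with normexp, which moved all genes by 0.16, -0.025 with array-median scaling, 0.10 without the 3 samples and 0.026 to 0.086 without 1 sample. Genotype differences and interactions called 0 members under every alternative. The causes were not tested. With 3 samples a group, small changes can go uncalled.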
